A study of Mus musculus with 18 samples.

Results

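A set of 10 genes, here called ERK pathway feedback genes, was followed in AT3 cells. These are a mouse mammary carcinoma line, treated with inhibitors of P300/CBP and with IFNγ. The genes were taken by name: the dual-specificity phosphatases Dusp4, Dusp5 and Dusp6, the Sprouty genes Spry1, Spry2 and Spry4, the Spred genes Spred1 and Spred2, and the ETS factors Etv4 and Etv5. All 10 were among the 43629 genes of the count table, and 7 of them (Dusp5, Dusp6, Spry2, Spred1, Spred2, Etv4 and Etv5) had enough counts to be tested beside 11964 genes in all. Dusp4, Spry1 and Spry4 fell under the filter on low counts.

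Messenger RNA was measured by QuantSeq, which sequences the 3′ end of transcripts, in 18 libraries. Cells were kept for 1 h in DMSO, in 250 nM A-241 or in 1000 nM A-485, and then for 2 h more with either 1 ng/mL IFNγ or its vehicle, 3 h in all. This gave 6 conditions of 3 libraries: DMSO, IFNγ, A-241, A-241+IFNγ, A-485 and A-485+IFNγ. All conditions shared this 1 line, which comes from a mammary tumour of a mouse carrying the polyoma middle T antigen under the MMTV promoter. The DMSO solvent control carried no inhibitor, and A-241 and A-485 are chemically distinct inhibitors of the acetyltransferase activity of P300 and CBP. The labels call the 3 libraries of a condition biological and the methods call them technical, so each n counts libraries and each p-value measures the spread between libraries, which may be technical.

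ERK is the last kinase of a cascade in which RAS activates RAF, RAF activates MEK and MEK phosphorylates ERK. Active ERK switches on immediate early transcription factors and also the genes that restrain it: DUSP6 removes the activating phosphates in the cytoplasm and DUSP4 and DUSP5 do so in the nucleus, while Sprouty and Spred proteins act further up, between receptor, RAS and RAF. Etv4 and Etv5 encode ETS transcription factors that are induced by receptor tyrosine kinase signalling, and the transcripts of all these genes are widely used to read ERK activity.

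Promoter windows from RefSeq (GRCm38.p6, the build of the counts) were found for 7 of the 10 members and were searched on both strands over the 250 bases before each start. Dusp5 and Dusp6 are shown because Dusp5 was the one tested member called by edgeR with its unweighted fit of all 18 libraries, and Dusp6 is the other tested phosphatase. The call of Dusp5 came in a comparison added after its values had been seen. The files list Dusp5 as ENSMUSG00000034765 (chr19:53529109-53542431, plus strand, 4 exons in GENCODE) and Dusp6 as ENSMUSG00000019960 (chr10:99263231-99267489, plus strand). The Dusp5 stretch is chr19:53528895-53529108 on the plus strand and ends where the first exon in GENCODE begins. The Dusp6 stretch is chr10:99262981-99263230, also on the plus strand. Capitals mark an SP1 box (GGGCGG), found 96 bases before the RefSeq start of Dusp5, and then 2 adjoining CArG boxes (CC, 6 bases of A or T, GG), the binding sequence of serum response factor, the first of them 82 bases before that start.
Dusp5: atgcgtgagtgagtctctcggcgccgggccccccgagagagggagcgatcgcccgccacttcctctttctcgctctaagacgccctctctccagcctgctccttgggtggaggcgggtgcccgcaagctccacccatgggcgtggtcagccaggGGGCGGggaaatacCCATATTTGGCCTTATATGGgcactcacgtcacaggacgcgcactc
Dusp6: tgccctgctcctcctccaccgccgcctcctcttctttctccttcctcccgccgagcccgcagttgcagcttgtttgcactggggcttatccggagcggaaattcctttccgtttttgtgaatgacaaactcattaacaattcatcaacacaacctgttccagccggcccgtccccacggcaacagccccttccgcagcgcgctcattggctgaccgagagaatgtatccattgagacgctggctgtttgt
A CArG box was present in 1.47% of the 32851 windows and an SP1 box in 32.7%. Of the 7 members with a window, Dusp5 alone held a CArG box, and the windows of Spred1, Spred2, Spry1 and Etv5 held SP1 boxes as well. No window of these members held the ETS motif CCGGAA (in 12.03% of all windows), the AP-1 motif TGANTCA (6.75%) or the CRE motif TGACGTCA (1.55%). The windows of Dusp6 and Spry2 held no SP1 or CArG box either. These matches describe letters in a window and not binding.

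Libraries held between 3417167 and 7856830 counts, and 3 counts corresponded to between 0.382 and 0.878 CPM, counts scaled to library size and, for the values of single genes given per library, by TMM factors. DMSO replicate 3 and IFNγ replicate 2 stood apart. The ribosomal RNA-like transcript Gm42418 took 20.1% and 23.0% of their counts against 7.11% to 16.2% in the other 16 libraries, and their expression deviated from the libraries of their own condition by a root mean square of 1.10 and 1.13 log2 units, compared with 0.339 to 0.767. Results that rest on them are given with and without both, a choice made after seeing the data. Leaving both out keeps DMSO replicates 1 and 2 and IFNγ replicates 1 and 3. The line expressed Krt8, Krt18, Epcam and Cdh1 of epithelium. Of 4 mesenchymal markers Vim, Fn1 and Cdh2 were expressed, whereas Zeb1 fell under the filter with at most 10 counts in a library. The 5 blood cell markers summed to at most 19.2 CPM of raw totals, 3 endothelial markers to at most 4.11 CPM and 4 fibroblast markers to at most 3.82 CPM. Of these, Adgre1 and Cdh5 were at 0 counts in all libraries, whereas Ptprc reached 17.1 CPM, Itgam 5.17 CPM and Pecam1 4.11 CPM. In bulk RNA, fewer cells of a type and less RNA per cell cannot be told apart. A pair of genes checks the IFNγ label, since Cxcl10 rose by 6.77 and Irf1 by 4.597 on the log2 scale with IFNγ over the 3 inhibitor states.

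Of the tested members, none passed an adjusted p of 0.01 in edgeR's quasi-likelihood test of all 18 libraries for either inhibitor. Dusp5 rose with IFNγ when the effect was averaged over the inhibitor states, where 2.01% of all genes were called. That comparison was added after the values of Dusp5 had been seen, and its call was lost in some single leave-outs. In the average over both IFNγ states, the largest fitted changes of a member were -0.41 for Etv4 with A-241 and -0.51 for Dusp6 with A-485, on the log2 scale. The median of the 7 members was -0.01 with A-241 and -0.29 with A-485, beside 0.00 and -0.02 for all genes tested. At the same threshold 10.4% of all genes were called with A-241 (7.05% lower and 3.39% higher) and 2.59% with A-485 (2.39% lower and 0.201% higher). At an unadjusted p under 0.05, 1 member was found with A-241 (Etv4, adjusted p = 0.0869 by edgeR) and 1 with A-485 (Etv5, adjusted p = 0.204), against 33.7% and 21.0% of all genes. DESeq2 and limma-voom called none of the members with either inhibitor in these averages.

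**Figure D1:**
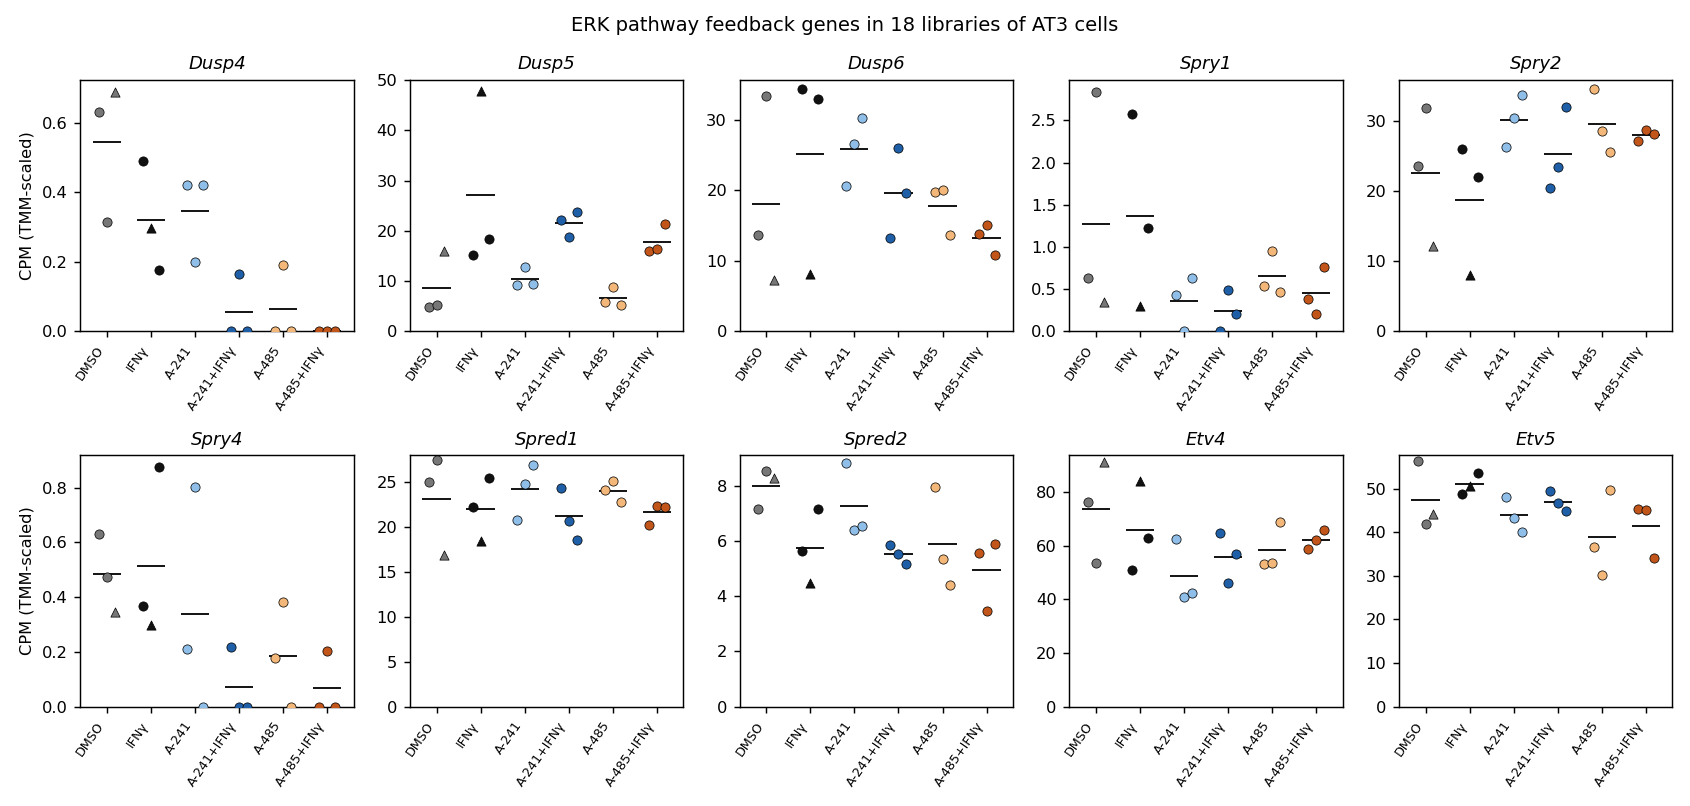
Each panel plots 1 of the 10 genes, with TMM-scaled CPM on a linear vertical axis from 0 and the 6 conditions on the horizontal axis; points are single libraries, horizontal lines the mean of 3 libraries, and triangles mark DMSO replicate 3 and IFNγ replicate 2. Dusp5 sits higher in the IFNγ conditions with either inhibitor, while the triangles lie above the other libraries of their condition for Dusp5 and below them for Dusp6 and Spry2.

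Counted comparison by comparison, no member was called in any of the 7 pairwise contrasts. The share of all genes called was 1.3% for IFNγ against DMSO, 4.35% for A-241 against DMSO and 0.66% for A-485 against DMSO. In the presence of IFNγ it was 4.09% for A-241 and 0.552% for A-485. With shares this small for either inhibitor and for IFNγ, a count of 0 among 7 members does not set them apart from other genes. At an unadjusted p under 0.05 in edgeR, Dusp5 (IFNγ against DMSO) and Etv4 (A-241 against DMSO) were the only members found in these 7 contrasts. The share of all genes at that cut was 8.49% for IFNγ against DMSO and 23.2% for A-241 against DMSO. Comparisons with DMSO share the same 3 DMSO libraries, and those with IFNγ share the 3 IFNγ libraries, so they are not independent of each other.

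Dusp5, which encodes a nuclear phosphatase specific for ERK, was the member with the clearest rise. Its exons share 547 bases with an antisense gene, AC137853.2, that is not analysed here, and since the counting used no strand, reads of the pair cannot be told apart. DMSO libraries had 4.85, 5.21 and 15.9 CPM and IFNγ libraries 15.1, 48.0 and 18.4 CPM. The highest value in each condition was that of the library that stood apart, and the conditions overlapped. With A-241 the values were 9.25, 12.8 and 9.27 CPM without IFNγ and 22.2, 18.8 and 23.7 CPM with it. With A-485 they were 5.82, 8.78 and 5.11 CPM and rose to 15.9, 16.3 and 21.3 CPM with IFNγ. Under either inhibitor all libraries with IFNγ were above all libraries without it, a separation that 13.3% of all genes showed in either direction with A-241 and 18% with A-485.

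The fitted IFNγ effect on Dusp5 was 1.70 on the log2 scale in DMSO (SE 0.45, adjusted p = 0.0851 by edgeR), 1.04 with A-241 (SE 0.43, adjusted p = 1.00) and 1.43 with A-485 (SE 0.45, adjusted p = 0.264). None of these single contrasts was called, and 0.192% and 0.802% of all genes were called for IFNγ within A-241 and within A-485. Averaged over the 3 states, 9 libraries against 9, Dusp5 rose by 1.39 (SE 0.26, 95% confidence interval 0.85 to 1.93, adjusted p = 0.00368), where 2.01% of all genes were called. The comparisons of IFNγ within an inhibitor and over all states were added after the values of Dusp5 had been seen. In single leave-outs the averaged call was lost without A-241 replicate 1 (adjusted p = 0.0106), without A-241 replicate 3 (adjusted p = 0.0105) and without A-485 replicate 1 (adjusted p = 0.0114), with effects of 1.36 each. DMSO replicate 3 decided the contrast of IFNγ with DMSO, which was 2.40 (adjusted p = 0.00419) without it. IFNγ replicate 2 acted in the other direction, and without it the contrast was 1.06 and not called.

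Both libraries that stood apart held the highest Dusp5 value of their condition, so leaving them out, a choice made after seeing the data, narrows the spread. DMSO replicates 1 and 2 and IFNγ replicates 1 and 3 then remained. Without both, Dusp5 rose by 1.71 with IFNγ against DMSO (SE 0.26, adjusted p = 0.000418), by 1.05 with A-241 (adjusted p = 0.00955) and by 1.44 with A-485 (adjusted p = 0.000264), all by edgeR. The averaged effect was then 1.40 (SE 0.13, adjusted p = 4.00e-07). In these 16 libraries 2.03% of all genes were called for IFNγ against DMSO and 3.73% for the averaged IFNγ effect. The share was 0.478% for IFNγ with A-241 and 1.67% for IFNγ with A-485.

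Whether P300/CBP inhibition altered the IFNγ response of Dusp5 was asked by the interaction. It was -0.66 for A-241 (95% confidence interval -1.98 to 0.66, adjusted p = 1.00 by edgeR) and -0.27 for A-485 (-1.61 to 1.07, adjusted p = 1.00). Over all genes, 0.0334% were called in the A-241 interaction and 0% in that of A-485. The intervals span both a loss of more than the whole mean IFNγ effect and a gain, so that a change in response was not detectable with 3 libraries per condition. By mean log2 CPM of all 18 libraries, the order of conditions was IFNγ, A-241+IFNγ, A-485+IFNγ, A-241, DMSO and A-485. In this order A-241+IFNγ stood above A-485+IFNγ, and A-485+IFNγ above A-241, by more than the larger SD of the pair, and the other neighbours did not. The libraries of A-241+IFNγ (from 18.8 CPM) and of A-485+IFNγ (up to 21.3 CPM) still overlapped. Their direct contrast was 0.27 (95% confidence interval -0.62 to 1.16) and was not called. By the median, A-241+IFNγ (22.2 CPM) was above IFNγ (18.4 CPM), and A-485 (5.82 CPM) above DMSO (5.21 CPM).

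With the inhibitors alone in 18 libraries, Dusp5 differed from DMSO by 0.36 for A-241 (95% confidence interval -0.62 to 1.33, adjusted p = 0.686 by edgeR) and by -0.31 for A-485 (-1.31 to 0.70, adjusted p = 0.809). These contrasts hold no IFNγ library and turn on DMSO replicate 3, at 15.9 CPM against 4.85 and 5.21 CPM in the other DMSO libraries. Without DMSO replicate 3 and IFNγ replicate 2, they were 1.01 for A-241 (adjusted p = 0.0121) and 0.36 for A-485 (adjusted p = 0.567). In the same 16 libraries Dusp5 was higher under A-241, averaged over both IFNγ states, by 0.69 (SE 0.17, 95% confidence interval 0.34 to 1.04, adjusted p = 0.00493 by edgeR), where 15.5% of all genes were called. With all 18 libraries that average was 0.03 (SE 0.31, adjusted p = 0.965). For A-485 the average was -0.44 (adjusted p = 0.441) with all libraries and 0.22 (adjusted p = 0.445) without both, so its sign depended on them.

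**Figure D2:**
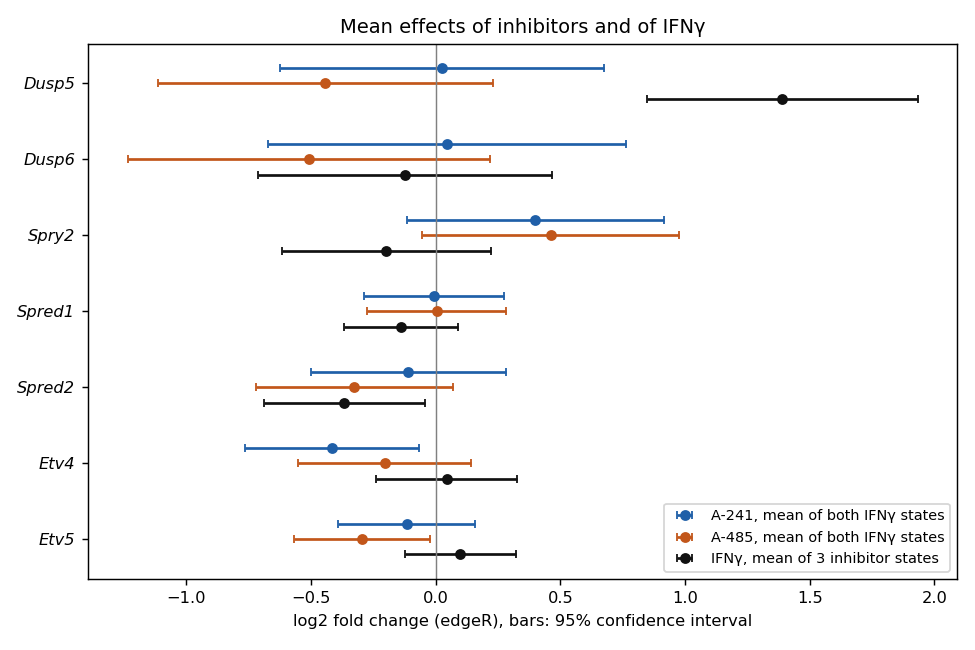
Log2 fold changes fitted by edgeR for the 7 tested genes are plotted on the horizontal axis, with 95% confidence intervals, for A-241 and A-485 averaged over both IFNγ states and for IFNγ averaged over the 3 inhibitor states, all from 18 libraries. The IFNγ interval of Dusp5, from 0.85 to 1.93, is the only one that belongs to a called change. That comparison was added after the values of Dusp5 had been seen.

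Dusp6, the cytoplasmic ERK phosphatase and a common marker of MEK and ERK activity, varied most among the members. DMSO libraries had 13.7, 33.5 and 7.26 CPM and IFNγ libraries 34.4, 8.04 and 33.0 CPM, so that the lowest value of each condition came from the library that stood apart. Values were 20.6, 26.6 and 30.3 CPM with A-241 and 13.3, 26.1 and 19.6 CPM with A-241+IFNγ. With A-485 they were 19.8, 20.04 and 13.7 CPM and with A-485+IFNγ 13.8, 15.1 and 10.8 CPM, the lowest mean of the 6 conditions. The DMSO and IFNγ libraries together spanned the range of all other conditions, and no neighbours in the order of levels differed beyond their spread.

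A-485+IFNγ against IFNγ gave -0.95 for Dusp6 on the log2 scale (SE 0.49, 95% confidence interval -1.99 to 0.08, adjusted p = 0.377 by edgeR). Without the libraries that stood apart it fell by 1.36 (SE 0.30, adjusted p = 0.00857), in a fit where 2.68% of all genes were called. With all libraries, limma-voom with sample quality weights gave -1.29 (adjusted p = 0.00409). Both settings were chosen after seeing the data, and the libraries left out held the lowest Dusp6 values of their conditions. All 3 A-485+IFNγ libraries, at 10.8 to 15.1 CPM, were below the IFNγ libraries at 34.4 and 33.0 CPM and above IFNγ replicate 2 at 8.04 CPM. Averaged over both IFNγ states, A-485 gave -0.51 (SE 0.34, adjusted p = 0.412) with all libraries and -0.91 (SE 0.21, adjusted p = 0.00821) without both, where 5.41% of all genes were called. A-241 averaged 0.05 (95% confidence interval -0.67 to 0.76, adjusted p = 0.940) with all libraries and -0.35 (-0.78 to 0.08, adjusted p = 0.229) without both, and was not called. The IFNγ effect on Dusp6, averaged over the inhibitor states, was -0.12 (95% confidence interval -0.71 to 0.47).

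**Figure D3:**
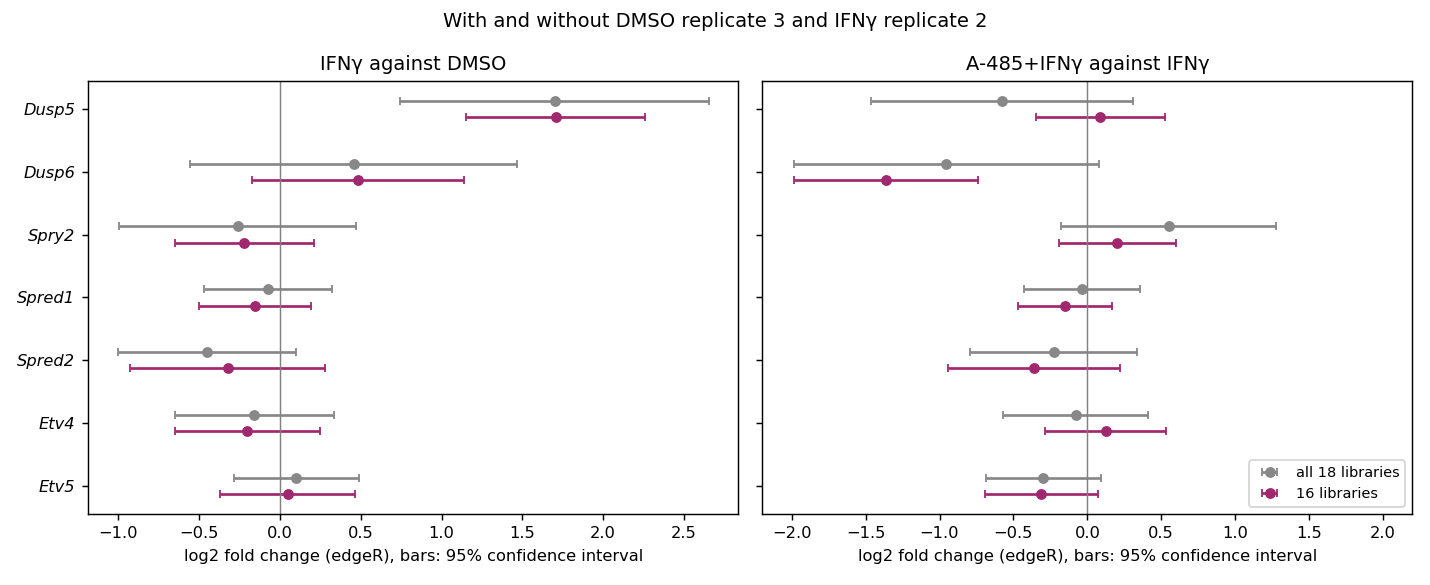
The horizontal axes give log2 fold changes with 95% confidence intervals by edgeR for IFNγ against DMSO (left) and for A-485+IFNγ against IFNγ (right), in grey from all 18 libraries and in purple from the 16 without DMSO replicate 3 and IFNγ replicate 2. Dusp5 stays at 1.70 and 1.71 with IFNγ while its interval narrows, and Dusp6 moves from -0.95 to -1.36 with A-485+IFNγ.

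Dusp4, the inducible nuclear phosphatase that acts on ERK, JNK and p38, was close to the limit of detection, with 20 counts in all 18 libraries together. The DMSO libraries held 3, 2 and 2 counts and the IFNγ libraries 4, 1 and 1. A-241 libraries held 2, 1 and 2 counts, and the other 3 conditions had 0 or 1 count in each library. Pooled over both IFNγ states, 13 counts without inhibitor made 0.403 CPM of raw totals (exact Poisson 95% interval 0.215 to 0.690), 6 counts with A-241 made 0.208 CPM (0.0762 to 0.452) and 1 count with A-485 made 0.0332 CPM (0.000841 to 0.185). Intervals of this kind cover only the counting error of reads, which carry no molecular identifiers, and leave out the spread between libraries. The interval with A-485 lies below that without inhibitor and that with A-241 overlaps both. In an unfiltered edgeR fit the averaged A-485 effect had an adjusted p of 0.0911.

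Of the Sprouty genes, which encode inhibitors of receptor tyrosine kinase signalling, Spry2 alone was well measured. DMSO libraries had 23.6, 31.9 and 12.1 CPM of Spry2 and IFNγ libraries 26.1, 8.04 and 22.03 CPM. As for Dusp6, DMSO replicate 3 and IFNγ replicate 2 were the lowest of all 18 libraries. The 12 libraries with an inhibitor lay between 20.4 and 34.6 CPM, whatever the compound and with or without IFNγ. Spry2 changed by 0.40 with A-241 (SE 0.24, 95% confidence interval -0.12 to 0.91, adjusted p = 0.261 by edgeR) and by 0.46 with A-485 (SE 0.24, -0.05 to 0.97, adjusted p = 0.291), in values that did not pass the test. Without both libraries the values were 0.07 (-0.21 to 0.35) and 0.13 (-0.15 to 0.41).

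Spry1 and Spry4 had few counts. Spry1 held 3, 18 and 1 counts in DMSO and 21, 1 and 7 in IFNγ, and between 0 and 5 in each of the 12 libraries with an inhibitor. Most of its 51 counts without inhibitor thus came from DMSO replicate 2 and IFNγ replicate 1, and the 2 libraries that stood apart were the lowest of their conditions. Pooled over both IFNγ states, Spry1 was at 1.58 CPM of raw totals without inhibitor (exact Poisson 95% interval 1.18 to 2.08), at 0.311 CPM with A-241 (0.142 to 0.591) and at 0.564 CPM with A-485 (0.329 to 0.904), so neither inhibitor interval reached the one without inhibitor. These intervals leave out the spread between libraries. In an edgeR fit without the filter, A-241 averaged -2.21 (SE 0.65, adjusted p = 0.0267) and A-485 -1.37 (SE 0.59, adjusted p = 0.277). In the 16 libraries Spry1 passed the filter through the conditions where it was high, so no test is given for it there. Its exons share 710 bases with Gm42922 on the other strand, which is not analysed here.

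Spry4 had 26 counts in all. The DMSO libraries held 3, 3 and 1 counts, the IFNγ libraries 3, 1 and 5, and no library with an inhibitor had over 4. The 16 counts without inhibitor made 0.497 CPM of raw totals (exact Poisson 95% interval 0.284 to 0.806), against 0.208 CPM with A-241 (0.0762 to 0.452) from 6 counts and 0.133 CPM with A-485 (0.0362 to 0.340) from 4 counts. These intervals overlap, and differences in Spry4 were not detectable at this depth.

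Spred1 and Spred2 encode membrane-associated inhibitors of the step from RAS to RAF. Spred1 was the steadiest member. Its condition medians lay between 20.7 and 25.1 CPM, and its lowest library was DMSO replicate 3 at 16.9 CPM and its highest DMSO replicate 2 at 27.5 CPM. The averaged effects were -0.01 for A-241 (95% confidence interval -0.29 to 0.27) and 0.00 for A-485 (-0.28 to 0.28), so an averaged change of Spred1 beyond 0.29 on the log2 scale lay outside the interval of either inhibitor. For IFNγ over the 3 states the effect was -0.14 (-0.37 to 0.09).

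Spred2 had 7.17, 8.53 and 8.29 CPM in DMSO and 5.65, 4.47 and 7.17 CPM in IFNγ, so the highest IFNγ library met the lowest DMSO library. With A-241 it had 8.83, 6.41 and 6.53 CPM without IFNγ and 5.87, 5.54 and 5.16 CPM with it, and these conditions did not overlap, as for the 13.3% of all genes given above. With A-485 the values were 7.94, 5.34 and 4.41 CPM and, with IFNγ, 5.55, 3.46 and 5.89 CPM, with wide overlap. The IFNγ effect averaged over the 3 states was -0.37 (SE 0.15, 95% confidence interval -0.69 to -0.04), with an unadjusted p of 0.0283 in edgeR and an adjusted p of 0.390, so it failed the correction. Spred2 changed by -0.11 with A-241 and by -0.33 with A-485 (SE 0.19 for both, adjusted p = 0.713 and 0.335 by edgeR).

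Etv4 and Etv5 were the members with the most counts. Etv4 had 76.3, 53.5 and 91.2 CPM in DMSO and 62.5, 41.1 and 42.6 CPM with A-241, with overlap through A-241 replicate 1 and DMSO replicate 2. IFNγ libraries had 51.0, 84.3 and 62.8 CPM and A-241+IFNγ libraries 64.8, 46.0 and 56.9 CPM. With A-485 the values were 53.1, 53.4 and 68.8 CPM, and 58.9, 62.1 and 65.7 CPM with IFNγ. Etv4 was highest in both libraries that stood apart, opposite to Dusp6 and Spry2. A-241 against DMSO gave -0.59 (SE 0.23, 95% confidence interval -1.09 to -0.10, adjusted p = 0.134 by edgeR), and the average over both IFNγ states -0.41 (SE 0.16, -0.76 to -0.07). Without both libraries that average was -0.24 (SE 0.14, adjusted p = 0.220). The A-485 average was -0.21 (-0.55 to 0.14).

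Etv5 had 56.3, 41.8 and 44.2 CPM in DMSO and 48.7, 50.6 and 53.5 CPM in IFNγ. With A-241 it was at 48.2, 43.3 and 40.03 CPM and with A-241+IFNγ at 49.4, 46.6 and 44.8 CPM. With A-485 it was at 36.5, 30.2 and 49.7 CPM and with A-485+IFNγ at 45.4, 45.01 and 34.0 CPM. The A-485 conditions held the 3 lowest libraries that were under 40 CPM, and overlapped with the DMSO condition. The averaged effect of A-485 on Etv5 was -0.29 (SE 0.13, 95% confidence interval -0.57 to -0.02), with the adjusted p of 0.204 given above, and that of A-241 was -0.12 (-0.39 to 0.16). IFNγ averaged 0.10 for Etv5 (-0.12 to 0.32) and 0.04 for Etv4 (-0.24 to 0.33).

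A-241 and A-485 were set beside each other at the doses of the study, 250 nM and 1000 nM, which differ. None of the 7 members was called in the direct contrast without IFNγ, where 0.368% of all genes were, with IFNγ (0.518%) or in the average of both states (1.25%). In the average, A-241 was above A-485 by 0.47 for Dusp5 (95% confidence interval -0.19 to 1.13) and by 0.55 for Dusp6 (-0.17 to 1.28), and by 0.22 for Spred2 (-0.18 to 0.61). The other 4 members differed by between -0.21 (Etv4, -0.56 to 0.14) and 0.18 (Etv5, -0.10 to 0.45). The smallest adjusted p of a member was 0.642 in edgeR. The intervals of both phosphatases still hold differences of over 1 on the log2 scale, whereas that of Spred1 was -0.29 to 0.27.

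The members also differed in how much they varied between libraries of one condition. The biological coefficient of variation fitted by edgeR, the spread left after counting error, was 0.406 for Dusp6, 0.356 for Dusp5 and 0.285 for Spry2, above 90.2%, 84.8% and 72.6% of all genes tested. For Etv4 it was 0.208, and for Etv5, Spred2 and Spred1 it was 0.163, 0.157 and 0.148. The deviation of DMSO replicate 3 and IFNγ replicate 2 from the other libraries of their condition was 1.59 and 1.50 for Dusp5, -1.51 and -2.02 for Dusp6 and -1.16 and -1.53 for Spry2, on the log2 scale. For Etv4 it was 0.51 and 0.57, and for Etv5 -0.13 and -0.01. The part of these libraries' Gm42418 content in those deviations was not tested.

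Across the 18 libraries, log2 CPM of Dusp6 and Etv4 ran opposite (Pearson's r = -0.82), as did Spry2 and Etv4 (-0.73), while Dusp6 and Spry2 ran together (0.64). Over the 16 libraries these values were -0.68, -0.50 and 0.21. They describe libraries that share 6 conditions and are given without a test. By the same measure, over 7409 genes with at least 50 counts a library on average, the genes most like Dusp5 were Hivep2 (r = 0.87), Fam76a (0.87) and Trim56 (0.87). Those most like Dusp6 were Alkbh5, Llgl1 and Arl8a (0.94, 0.94 and 0.93), and those most like Spry2 were Gm11488, Smco4 and Ei24 (0.93 each), which dropped to between 0.52 and 0.55 over the 16 libraries. Slc25a39, Galk1 and Mrpl12 were most like Etv4 (0.94, 0.93 and 0.91), and Bnip1, Inpp5a and Rmi2 most like Etv5 (0.81, 0.74 and 0.73). Ywhae, Gm5564 and Igfbp2 were most like Spred1 (0.81, 0.77 and 0.76), and dropped to 0.64, 0.54 and 0.59 over the 16 libraries. Rhob, Gm4631 and Ccdc191 were most like Spred2 (0.67, 0.65 and 0.64).

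The other genes of the pathway, in 4 lists, included called genes. Of 15 tested immediate early and ERK output genes, 4 fell and 2 rose under A-241, averaged over both IFNγ states, with a median of -0.56 on the log2 scale. Myc, a growth-promoting transcription factor, was between 8.85 and 26.2 CPM in the DMSO and IFNγ libraries and between 0 and 1.31 CPM with A-241. It fell by 4.29 (SE 0.42, adjusted p = 2.10e-06 by edgeR). Ccnd1, the cyclin of the G1 phase, fell by 1.67 (SE 0.10, adjusted p = 8.02e-09) and Phlda1 by 2.17 (SE 0.19, adjusted p = 6.58e-07). Egr1 and Fos, immediate early factors induced through ERK, went the other way and rose by 1.59 (SE 0.14, adjusted p = 6.82e-07) and 1.28 (SE 0.25, adjusted p = 0.00150). Without the libraries that stood apart, 6 genes of this list fell and 2 rose, in a fit that called 15.5% of all genes.

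Among 9 other phosphatases and regulators tested, 3 fell under A-241 and 0 rose: Dusp7 by -1.07 (SE 0.19), Dusp16 by -0.95 (SE 0.14) and Dusp8 by -0.78 (SE 0.20, adjusted p = 0.00979). The call of Dusp8 was lost in 18 of 23 other settings, among them the fit without the libraries that stood apart (adjusted p = 0.0218). DUSP7 acts on ERK, and DUSP8 and DUSP16 on JNK and p38. Among 10 receptors and ligands tested, 4 fell and 1 rose under A-241. Of the receptor tyrosine kinases, Met (-1.24, SE 0.12) and Egfr (-0.91, SE 0.16) fell, and Hbegf, a ligand of EGFR, rose by 0.82 (SE 0.15). Pdgfra was called too, but had at most 14 counts in a library and 0 in 3 of the 6 A-241 libraries, and its fitted value ran from -4.37 to -2.49 over the settings. Of the 21 core cascade genes, all tested, 1 was lower, the scaffold Ksr1 (-2.15, SE 0.22), and 1 was higher, the adaptor Grb2 (0.39, SE 0.09, a call lost in 7 of 23 other settings), and the median was -0.02. Over all genes 10.4% were called in this comparison, and whether a list differed from other genes was not tested.

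With A-485 in the same average, 5 of 15 immediate early and output genes fell and 1 rose, where 2.39% of all genes were called lower and 0.201% higher. Ccnd1 fell by 1.32 (SE 0.10, adjusted p = 1.40e-06 by edgeR) and Myc by 1.62 (SE 0.32, adjusted p = 0.00581), and Egr1 rose by 0.68 (SE 0.13, adjusted p = 0.00581). The calls of Myc and Egr1 were lost in 8 of 22 and 11 of 23 other settings, most of them with 1 library left out. No other phosphatase or regulator was called, 1 receptor was (Met, -0.65, SE 0.12) and 1 core gene was (Ksr1, -1.54, SE 0.22). Without both libraries that stood apart 3 receptors and ligands were lower in place of 1, where 5.41% of all genes were called. With IFNγ averaged over the 3 states, Ksr1 rose by 1.11 (SE 0.18) and Hbegf fell by 0.61 (SE 0.12, a call lost in 13 of 29 other settings), and 2 of 15 output genes rose and 0 fell, where 2.01% of all genes were called. The members' own counts in these averages were 0 of 7 for A-241 (10.4% of all genes called), 0 of 7 for A-485 (2.59%) and 1 of 7 for IFNγ (2.01%), the last in a comparison added after the values of Dusp5 had been seen.

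**Figure D4:**
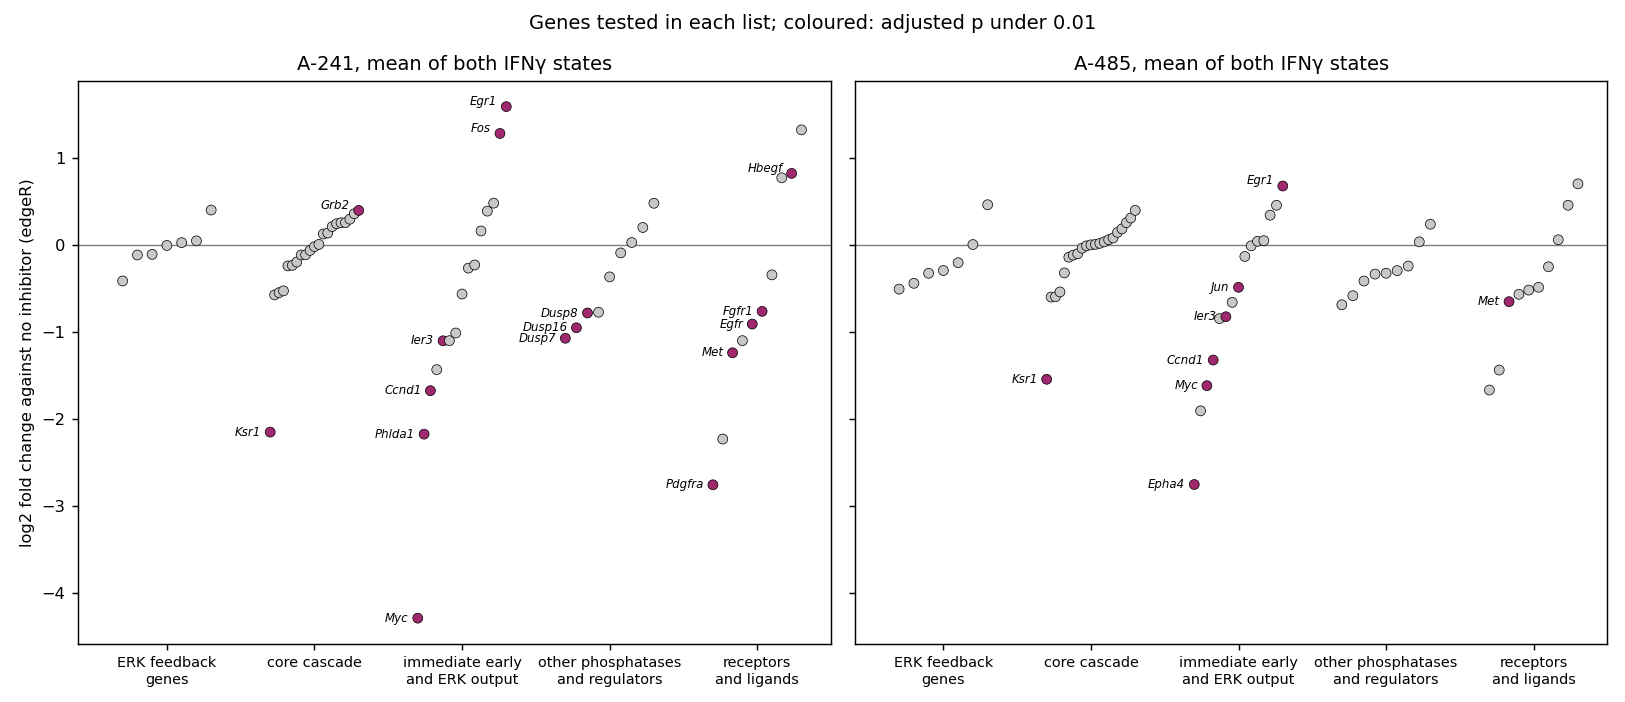
Each point is the log2 fold change fitted by edgeR for 1 tested gene (vertical axis) against no inhibitor, averaged over both IFNγ states, for A-241 (left) and A-485 (right); the horizontal axis separates the ERK feedback genes from 4 other lists of the pathway, and purple points with names passed an adjusted p of 0.01. The 7 feedback genes lie between -0.51 and 0.46 with none called, while Myc reaches -4.29 and Egr1 1.59 with A-241.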

How the data were processed

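The authors trimmed reads with cutadapt 1.7, aligned them to mm10 with HISAT2 2.1.0 and counted them on exons with featureCounts, and deposited raw counts per Ensembl gene without normalization. A read over several genes was counted for each, no strand option was stated, and the annotation release is not given in the sources used here. Identifiers were joined to GENCODE vM21 (97.3% with a symbol). Members and lists were chosen with earlier results of these data known.

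Samples were grouped by treatment label. edgeR 4.0.16 (R 4.3.3) was fitted to all 18 libraries, 1 mean per condition, after filterByExpr and with TMM factors. Benjamini-Hochberg adjustment ran over 11964 genes, and calls needed an adjusted p under 0.01. Libraries held 3417167 to 7856830 counts, which limits genes of few counts most. Log2 CPM used a prior count of 2. SDs and likeness refer to log2 CPM. All members are named, and of each pathway list at most 3 genes per direction with the largest averaged A-241 change, plus those genes' values in other averages. Alternatives were DESeq2 1.42.0, limma-voom (limma 3.58.1), other scalings, other filters, a replicate block and single leave-outs. Leaving out both libraries that stood apart, quality weights and 3 IFNγ comparisons were chosen after seeing the data. No pair of libraries in 1 condition was identical. The code was tested on simulated data. One further motif search is not reported here.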

Additional observations from a re-analysis of the deposited data

How the results depend on the processing

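In the 12 planned comparisons, fold changes of Dusp5 and Dusp6 became calls 7 times, with each alternative setting counted separately. Those of the other tested members did not, and no called value changed sign in any comparison. The count of called members, over the 7 tested in all 18 libraries, moved in these cases. For IFNγ against DMSO, 1 member (Dusp5) was higher without both libraries that stood apart and with limma-voom quality weights, and leaving out single libraries gave 0 to 1, with 1 without DMSO replicate 3. Without both libraries, 1 member (Dusp5) was higher with A-241 on average, 1 (Dusp6) lower with A-485 on average and 1 (Dusp6) lower for A-485+IFNγ against IFNγ, the last also with quality weights. Spry1, which passed the low-count filter there, is not among those 7 and is not counted. In the added comparisons, 1 member (Dusp5) was higher for IFNγ with A-241 and for IFNγ with A-485 under both of these settings. Without both libraries, 0.478% and 1.67% of all genes were called there. For IFNγ with A-485, Dusp5 was also higher where only the groups compared were fitted, with 154 of 11190 genes higher and 30 lower. For IFNγ averaged over the 3 inhibitor states, leaving out single libraries gave 0 to 1. The cause was not tested.

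Of 45 pairs of same-numbered libraries, 15 deviated together with a correlation over 0.1, and the values ran from -0.80 to 0.48. Pairs with different numbers were not set beside them, so whether the numbers mark a pairing cannot be decided from this check. A replicate block changed no call of a member, and the IFNγ effect on Dusp5 against DMSO was 1.66 with it (adjusted p = 0.115 by edgeR). Total counts without factors moved the median of all genes with A-241 on average to 0.13 on the log2 scale. In the A-241 average the members with effects near 0, Dusp5, Dusp6 and Spred1, changed sign in 7, 7 and 8 of 23 settings. Spred2 and Etv5 did so in 1 setting each. In the A-485 average Dusp5 changed sign in 2 settings and Spred1 in 10. Depth limits Dusp4, Spry1 and Spry4.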
